A study of Mus musculus with 18 samples.

Results

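The mRNA of wild-type (WT) mouse oocytes collected 14 h after human chorionic gonadotropin (hCG), a time that the labels denote as MII, was compared with that of WT oocytes at metaphase I (MI). The comparison used 6 of the 18 libraries of a series on Lsm14b, 3 at WT MII and 3 at WT MI, each made from 15 oocytes. The other 12 libraries are from Lsm14b-/- (KO) oocytes at the germinal vesicle stage (GV), MI and MII, and from WT oocytes at GV. Lsm14b codes for a protein that binds RNA in ribonucleoprotein granules. The KO libraries at MII and MI were used only to ask whether the change in WT differed from that in KO, and WT GV only for levels. The labels state neither strain nor age, and no statement was found that replicates came from separate mice, so p-values measure the spread between these libraries, which may be technical. Each library pools oocytes, so fewer oocytes with an mRNA and less mRNA per oocyte cannot be told apart.

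A fully grown oocyte is nearly silent in transcription, and it passes through both meiotic divisions on mRNAs that it stored while growing. Between MI and MII it segregates homologous chromosomes, extrudes the first polar body and arrests again until fertilization. During this time some stored mRNAs have their poly(A) tails lengthened and are translated, often through a cytoplasmic polyadenylation element (CPE) near the end of the 3′ untranslated region (UTR). Others are deadenylated by CCR4-NOT, with BTG4 as an adaptor, and degraded.

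Levels are given as FPKM, read or fragment counts divided by exon length and by library depth, a value relative to the rest of its library. cDNA was primed with oligo(dT), so a level can follow both tail length and the number of molecules, which cannot be told apart here. Reads on genes numbered 16657664 to 17298074 in WT MII and 15610417 to 17340971 in WT MI. Genes at 1 FPKM or more numbered 7581 to 8019 per library in WT MII and 8223 to 9795 in WT MI. The first principal component took 79.8% of the variance and placed the WT MII libraries at 47.0 to 54.5 and the WT MI libraries at -41.4 to -62.0. Within the groups Pearson's r across genes was 0.975 to 0.987 in WT MII and 0.963 to 0.973 in WT MI, and it was 0.813 to 0.886 between them. All 13 oocyte markers were above 0 in each library. The lowest value was that of Figla, 0.0736 FPKM in WT MII replicate 3, and the other markers were above 1 FPKM in each library. Of 26 markers of cumulus and granulosa cells, 23 stayed under 1 FPKM in each library and 5 were at 0, Foxl2, Amh and Pgr among them. Their sum was 9.04 to 11.2 FPKM in WT MII and 7.07 to 11.4 FPKM in WT MI. Markers of theca, stroma and endothelium summed to 7.59 to 8.43 FPKM in WT MII and 4.97 to 7.12 FPKM in WT MI, and Col1a2 and Cdh5 were at 0. Markers of blood and immune cells summed to 1.48 to 2.32 FPKM in WT MII and 2.88 to 32.6 FPKM in WT MI, of which Lyz2 gave 27.5 FPKM in WT MI replicate 2. No marker of the first pair of lists passed the test in limma, none did at an unadjusted p under 0.05 or with voom, though under median-of-ratios and quantile scaling 2 of the 3 tested cumulus and 1 of the 2 tested stroma markers were higher in WT MII. H2-Aa was the single blood marker lower in WT MII (log2 change -0.67). Lsm14b itself had 9.803, 10.8 and 7.42 FPKM in WT MII, against 11.2, 4.99 and 5.01 FPKM in WT MI, which overlap (log2 change 0.43 ± 0.30 SE, adjusted p = 0.267). The call of H2-Aa was lost without WT MI replicate 1 or WT MII replicate 1, 2 or 3, with an adjusted p of up to 0.114.

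Of 27874 genes, 8804 reached 1 FPKM in 3 or more of these 6 libraries and were tested on log2(FPKM + 1) with limma. In WT MII, 2624 genes (29.8%) were lower than in WT MI and 703 (7.99%) were higher at an adjusted p under 0.05, 37.8% in all, and 5477 passed in neither direction. The falls were larger than the rises. Genes called lower had a median log2 change of -1.41, 1945 of them changed at least 2-fold, 694 at least 4-fold and 50 at least 16-fold. Genes called higher had a median of 0.77, and 74 changed at least 2-fold and 2 at least 4-fold. The 3 values of each group did not overlap in 2571 of the genes called lower and 646 of those called higher. A low p-value already goes with such a gap, so these counts add no support to the calls. The share without overlap among all 8804 genes is not given here. The filter kept 766 genes through the WT MI libraries alone, 745 of them called lower, and 28 through the WT MII libraries alone, 6 of them called higher.

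The number of falls depended little on scale, and the number of rises depended on it. Scaling by median-of-ratios gave 2168 genes higher and 2447 lower in WT MII, scaling to TPM 1565 and 2336, and quantile normalization 3389 and 2112. These shift the median log2 change over all tested genes to 0.127, 0.134 and 0.308, against -0.05 in the values as deposited, and raise the share of calls that are higher to 47.0%, 40.1% and 61.6%, against 21.1%. The rises also rest on single libraries. Without WT MII replicate 1 or 3 there were 180 and 190 genes higher, and without WT MI replicate 2 or 3 there were 444 and 310. The call held without each library in turn for 2104 of the 2624 falls and for 102 of the 703 rises.

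**Figure D1:**
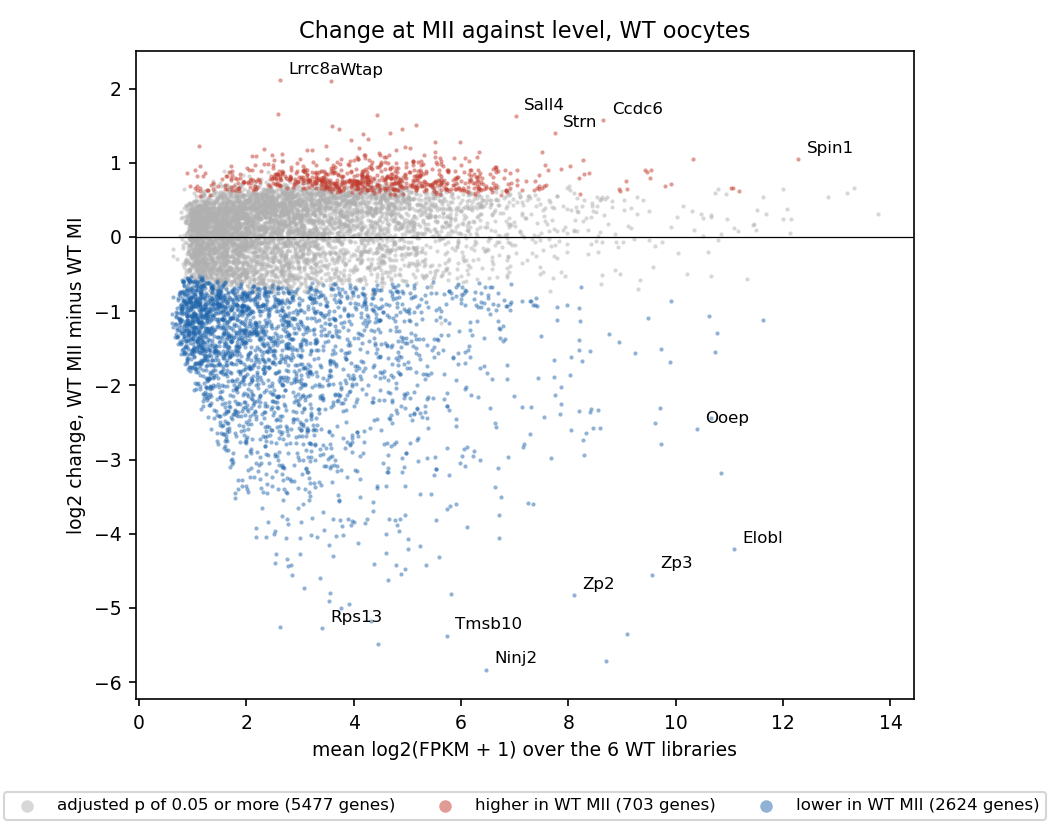
Each point is 1 of the 8804 genes tested, with its mean log2(FPKM + 1) over the 6 WT libraries on the horizontal axis and its log2 change, WT MII minus WT MI, on the vertical axis. The 2624 genes lower in WT MII reach below -5, while all but 2 of the 703 higher genes lie under 2.

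The deepest falls took abundant mRNAs to low levels. Ninj2, which codes for the cell-surface protein ninjurin, had 11.2, 12.2 and 9.06 FPKM in WT MII, against 526, 675 and 834 FPKM in WT MI (log2 change -5.83 ± 0.24 SE, adjusted p = 6.07e-10). Chchd2, a protein of the mitochondrial intermembrane space, had 1.78, 2.68 and 2.47 FPKM in WT MII, against 147, 128 and 164 FPKM in WT MI (log2 change -5.48 ± 0.23 SE, adjusted p = 6.07e-10). Tmsb10, a thymosin that binds actin monomers, had 6.55, 8.24 and 7.08 FPKM in WT MII, against 447, 257 and 345 FPKM in WT MI (log2 change -5.37 ± 0.24 SE, adjusted p = 7.11e-10). In all of these genes the highest WT MII library was far below the lowest WT MI library. Rps13, a protein of the small ribosomal subunit, had 0.595, 0.994 and 0.571 FPKM in WT MII, against 62.6, 64.9 and 68.1 FPKM in WT MI (log2 change -5.27 ± 0.23 SE, adjusted p = 7.11e-10). Cyb5a, cytochrome b5, averaged 2.38 ± 0.604 FPKM in WT MII and 120.2 ± 8.83 FPKM in WT MI (SD, n = 3 each; log2 change -5.18). The other falls among the 15 with the largest log2 change were Fam162a (-4.95), Cpsf4l (-4.91), Zp2 (-4.83), the uridine phosphorylase Upp1 (-4.73), Ndufb11 (-4.63), the nucleotide hydrolase Hint1 (-4.60), Zp3 (-4.55), the proteasome gene Psmb7 (-4.55), the elongation factor Elof1 (-4.43) and Znrd1, a subunit of RNA polymerase I (-4.42). All 15 were called without each library and under every other setting in which they were tested. Rps13, Psmb7 and Znrd1 had passed the filter through the WT MI libraries alone. At GV, Ninj2 averaged 717 FPKM and Tmsb10 274 FPKM, both within the range of the WT MI libraries.

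Measured in FPKM rather than as a ratio, the largest fall was that of Elobl, an elongin B-like gene, with 691, 583 and 326 FPKM in WT MII, against 12487, 7753 and 8524 FPKM in WT MI (log2 change -4.20 ± 0.29 SE, adjusted p = 3.13e-08). Ubb, a ubiquitin gene, had 523, 685 and 626 FPKM in WT MII, against 4275, 4671 and 8312 FPKM in WT MI (log2 change -3.18 ± 0.27 SE, adjusted p = 2.15e-07). Skp1a, the adaptor of SCF ubiquitin ligases, averaged 694 ± 107 FPKM in WT MII and 3853 ± 1222 FPKM in WT MI (SD, n = 3 each; log2 change -2.44), and Eloc, elongin C, averaged 165 ± 63.8 FPKM in WT MII and 949.5 ± 158 FPKM in WT MI (log2 change -2.57). Ubb, Skp1a and Eloc code for ubiquitin or for parts of ubiquitin ligases. The F-box genes Fbxw24 (-1.30) and Fbxw15 (-2.31) also fell, as did the glycogenin gene Gyg (-1.69) and Tmem14c (-2.51).

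**Figure D2:**
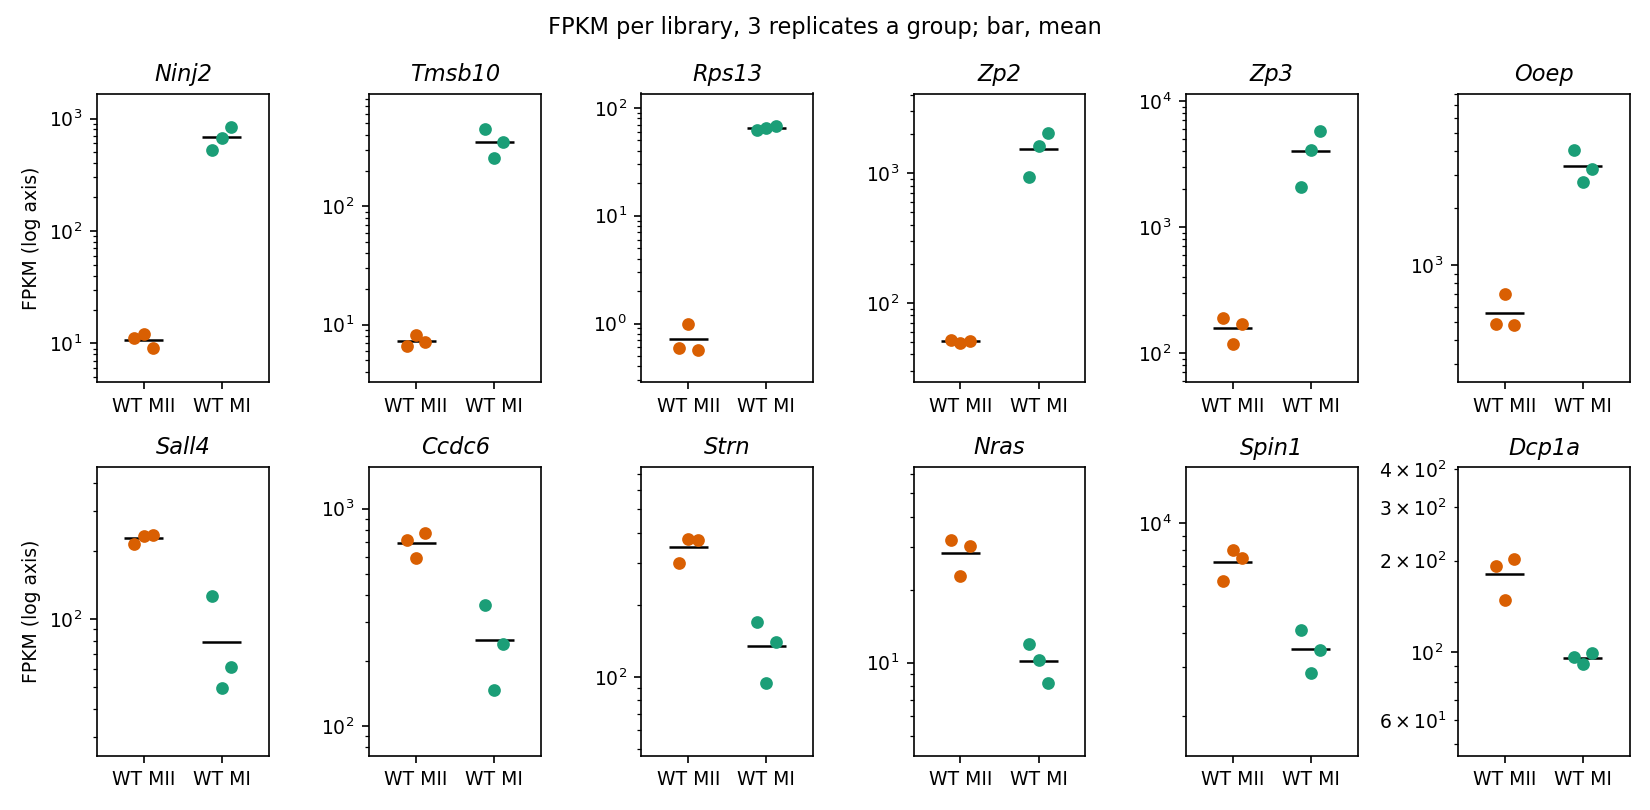
FPKM on a log axis in the 3 WT MII and the 3 WT MI libraries, with a bar at each mean, for 6 genes that fell (top row) and 6 that rose (bottom row). The groups do not overlap in any of the 12 genes, and the gaps in the top row are wider than in the bottom row.

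mRNAs for the machinery of protein synthesis and of respiration fell together. Of 82 cytosolic ribosomal protein genes, 65 passed the filter, 27 of them through the WT MI libraries alone, and 60 of the 65 were lower in WT MII (median log2 change -2.36), against 29.8% and -0.05 over all genes tested. Their summed level was 773, 1257 and 856 FPKM in WT MII, against 3256, 3047 and 2426 FPKM in WT MI. Rps4x had 0.545, 1.01 and 0.415 FPKM in WT MII, against 25.6, 33.7 and 21.2 FPKM in WT MI (log2 change -4.06 ± 0.26 SE, adjusted p = 1.47e-08), and Rps27 had 0, 0 and 0.059 FPKM in WT MII, against 9.09, 13.5 and 9.83 FPKM in WT MI (log2 change -3.51 ± 0.24 SE, adjusted p = 2.35e-08). Rpl35 fell as well (log2 change -3.44), but 66.2% of its exon bases are shared with another gene. Rps27 and Rpl35 are among the 27 that passed through the WT MI libraries alone. Ribosomal protein genes have many processed pseudogenes, and how reads from near-identical copies were counted is not given in the sources used here, so these levels are uncertain. Of 64 tested mitochondrial ribosomal protein genes, 16 passed the filter through the WT MI libraries alone, and 51 of the 64 fell (79.7%, against 29.8% of all; median -1.48). Examples are Mrpl55, which averaged 1.296 ± 0.353 FPKM in WT MII and 37.6 ± 15.1 FPKM in WT MI, Mrps6 (-3.35), Mrps24 (-3.39) and Mrpl28 (-3.24) (SD, n = 3 each; log2 changes in parentheses). Mrps6 and Mrpl28 are among the 16 that passed through the WT MI libraries alone.

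Of 72 tested nuclear genes of oxidative phosphorylation, 65 fell (90.3%, against 29.8% of all, median -2.26), 28 of the 72 having passed the filter through the WT MI libraries alone. Their summed level was 715, 727 and 664 FPKM in WT MII, against 2585, 2255 and 2056 FPKM in WT MI. Ndufb11, a subunit of complex I, averaged 4.02 ± 0.0965 FPKM in WT MII and 124 ± 21.2 FPKM in WT MI. Ndufa8, also of complex I, averaged 1.45 ± 0.152 FPKM in WT MII and 39.6 ± 4.98 FPKM in WT MI. Cox4i1, a subunit of cytochrome c oxidase, had 0.459, 0.392 and 0.159 FPKM in WT MII, against 23.6, 26.7 and 24.1 FPKM in WT MI (log2 change -4.28 ± 0.24 SE, adjusted p = 4.63e-09), and Atp5h, of the ATP synthase, had 3.68, 4.85 and 3.74 FPKM in WT MII, against 70.3, 72.7 and 65.6 FPKM in WT MI (log2 change -3.80 ± 0.23 SE, adjusted p = 6.99e-09). The groups are far apart in each of these genes, and Cox4i1 is among the 28 that passed through the WT MI libraries alone. Proteasome genes fell in 26 of 37 tested (70.3%, against 29.8% of all, median -1.36), 4 of the 37 having passed through the WT MI libraries alone. The falls included the catalytic subunits Psmb7 and Psmb5 (-2.65), the subunit Psmb1 (-2.53) and the ATPase Psmc4 (-2.95). Psmb7 had 0.433, 0.675 and 0.36 FPKM in WT MII, against 26.96, 32.5 and 43.7 FPKM in WT MI. Psmb7 and Psmb5 are among the 4 that passed through the WT MI libraries alone. Limma called no rise in the ribosomal, mitochondrial ribosomal, oxidative phosphorylation and proteasome lists. At an unadjusted p under 0.05 there were 0, 1, 0 and 2 rises in them, and with voom on recovered reads 0, 0, 0 and 1. Other scalings called 0 rises in the ribosomal list and 1 to 3 in each of the others. Under the other scalings 57 to 59 of the 65 ribosomal, 49 to 50 of the 64 mitochondrial ribosomal, 62 to 63 of the 72 oxidative phosphorylation and 24 of the 37 proteasome genes were called lower.

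The mRNAs of the mitochondrial genome itself were not called lower. Of 12 tested, 2 were higher in WT MII in limma (16.7%, against 7.99% of all genes tested), with a median of 0.59. None was lower in limma, against 29.8% of all, and none was lower at an unadjusted p under 0.05 or with voom. mt-Nd2, a subunit of complex I, had 1295, 2152 and 2192 FPKM in WT MII, against 1154, 1134 and 528 FPKM in WT MI (log2 change 1.05 ± 0.31 SE, adjusted p = 0.0148), and mt-Nd4 had 765, 1038 and 1320.0 FPKM in WT MII, against 817, 647 and 307 FPKM in WT MI, which overlap (log2 change 0.90 ± 0.32 SE, adjusted p = 0.0391). Under the other scalings 5 to 7 of the 12 were higher. mt-Nd2 averaged 161 FPKM at GV. Their summed level, 16127, 27188 and 25587 FPKM in WT MII, against 16232, 21774 and 10571 FPKM in WT MI, overlapped between the groups. The calls of mt-Nd2 (up to 0.0721 without WT MI replicate 3 or WT MII replicate 2) and mt-Nd4 (up to 0.186 without WT MI replicate 2 or 3 or WT MII replicate 2 or 3) were lost with that library left out, by their adjusted p.

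Of 37 translation factor genes 22 were lower (59.5%, against 29.8% of all genes tested), with a median of -0.85. The 3 that were higher (8.11%) were near the 7.99% of all genes, and 3 of the 37 had passed through the WT MI libraries alone. The initiation factor genes Eif3g, Eif1ax and Eif3m and the elongation factor gene Eef1d fell, Eif3g with 3.95, 2.51 and 3.13 FPKM in WT MII, against 43.4, 76.5 and 58.97 FPKM in WT MI (log2 change -3.83 ± 0.26 SE, adjusted p = 2.46e-08) and Eif1ax with 4.94, 6.52 and 3.69 FPKM in WT MII, against 53.6, 92.7 and 67.7 FPKM in WT MI (log2 change -3.57 ± 0.27 SE, adjusted p = 5.46e-08). Eef1a1, named after its values were seen, averaged 35.4 ± 12.3 FPKM in WT MII and 326 ± 149 FPKM in WT MI (log2 change -3.12). The 3 rises, also named after their values were seen, were Eif4a1 (1.02) and Eif4a2 (0.76), helicases of the cap-binding complex, and Eif4g2 (0.76). Of 47 spliceosome genes, 6 of them passed through the WT MI libraries alone, 18 fell (38.3%, against 29.8% of all) and 1, Sf3b1 (0.66), rose. Their median of -0.21 turns to 0.01 and 0.02 under median-of-ratios and quantile scaling. Snrpd2, an Sm core protein, averaged 0.101 ± 0.0763 FPKM in WT MII and 10.7 ± 1.96 FPKM in WT MI (log2 change -3.40), and Snrnp25 (-3.01), Bud31 (-3.70) and Phf5a (-2.25) also fell. Snrpd2 and Snrnp25 are among the 6 that passed through the WT MI libraries alone. The calls of Eif4a2 (up to 0.0611 without WT MII replicate 3), Eif4g2 (up to 0.0903 without WT MI replicate 3 or WT MII replicate 1 or 3) and Sf3b1 (up to 0.103 without WT MI replicate 2 or WT MII replicate 1, 2 or 3) were lost with that library left out, by their adjusted p.

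Zp1, Zp2 and Zp3 code for the zona pellucida, the glycoprotein coat that sperm bind. Zp2 had 51.6, 48.8 and 50.6 FPKM in WT MII, against 928, 1627 and 2058 FPKM in WT MI (log2 change -4.83 ± 0.27 SE, adjusted p = 4.63e-09), Zp3 had 188, 117 and 169 FPKM in WT MII, against 2072, 4108 and 5728 FPKM in WT MI (log2 change -4.55 ± 0.32 SE, adjusted p = 3.45e-08), and Zp1 had 62.5, 27.6 and 55.01 FPKM in WT MII, against 312, 729 and 795 FPKM in WT MI (log2 change -3.60 ± 0.35 SE, adjusted p = 8.05e-07). The groups do not overlap in any of these genes, and WT MI replicate 1 was the lowest WT MI library in all 3 genes. At GV the levels were higher still, 2834 FPKM for Zp2, 7664 for Zp3 and 1366 for Zp1. Cd9, the tetraspanin needed for fusion with sperm, had 17.9, 11.5 and 8.39 FPKM in WT MII, against 105, 192 and 145 FPKM in WT MI (log2 change -3.46 ± 0.29 SE, adjusted p = 1.69e-07). Izumo1r, the sperm receptor Juno, averaged 17.3 ± 2.29 FPKM in WT MII and 89.8 ± 22.9 FPKM in WT MI (log2 change -2.28). In all, 8 of 13 tested genes of this list fell (61.5%, against 29.8% of all; median -2.28) and Serpine2, a serine protease inhibitor, was the single rise (0.89). Astl, the cortical granule protease that cleaves ZP2, averaged 189 ± 72.5 FPKM in WT MII and 131 ± 46.98 FPKM in WT MI and did not pass the test (adjusted p = 0.214). Izumo1r, Serpine2 and Astl were named after their values were seen.

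Of 27 tested genes of oocyte growth and transcription, 9 fell (33.3%) and 3 rose (11.1%), near the 29.8% and 7.99% of all genes tested (median 0.18). Figla, the transcription factor that drives the zona genes, had 1.49, 1.24 and 0.0736 FPKM in WT MII, against 20.5, 36.7 and 18.9 FPKM in WT MI (log2 change -3.80 ± 0.34 SE, adjusted p = 3.08e-07). Nobox had 33.6, 36.7 and 29.2 FPKM in WT MII, against 103, 212 and 119 FPKM in WT MI (log2 change -2.02 ± 0.27 SE, adjusted p = 1.81e-05), and Lhx8 averaged 14.8 ± 3.47 FPKM in WT MII and 71.7 ± 22.7 FPKM in WT MI (log2 change -2.17). These are transcription factors of the growing oocyte. The secreted growth factor gene Gdf9 averaged 3021 ± 532 FPKM in WT MII and 2720.3 ± 779 FPKM in WT MI (adjusted p = 0.617), and Bmp15 averaged 1580.4 ± 98.9 FPKM in WT MII and 1276 ± 156 FPKM in WT MI (adjusted p = 0.274), both named after their values were seen. Of 37 subcortical complex and maternal effect genes 10 fell (27.0%) and 3 rose (8.11%), again near the shares of all genes (median -0.05, above 0 under the other scalings). The subcortical maternal complex is a protein assembly that early cleavage needs. Its members Ooep (484, 698 and 479.6 FPKM in WT MII, against 4031, 2757 and 3225 FPKM in WT MI; log2 change -2.59 ± 0.25 SE, adjusted p = 5.81e-07) and Tle6 (125, 79.2 and 139.9 FPKM in WT MII, against 496, 953 and 1341 FPKM in WT MI; log2 change -2.93 ± 0.32 SE, adjusted p = 2.77e-06) fell, and Khdc3 fell to 0.147 FPKM in WT MII, against 4.72 FPKM in WT MI. Padi6, of the cytoplasmic lattices, had 281, 378 and 309.8 FPKM in WT MII, against 972, 2622 and 4329 FPKM in WT MI (log2 change -2.79 ± 0.39 SE, adjusted p = 3.04e-05). Padi6 varied over 4-fold among the WT MI libraries. Khdc3 was the 1 gene of this list that passed the filter through the WT MI libraries alone, and 38.5% of its exon bases are shared with another gene.

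The leading rises were smaller and of mixed function. Wtap, part of the RNA m6A methyltransferase, had 25.04, 30.98 and 17.5 FPKM in WT MII, against 16.1, 2.54 and 2.21 FPKM in WT MI (log2 change 2.10 ± 0.47 SE, adjusted p = 0.00209). Sall4, a zinc finger transcription factor, had 215, 232 and 234 FPKM in WT MII, against 126, 49.8 and 61.2 FPKM in WT MI (log2 change 1.63 ± 0.29 SE, adjusted p = 0.000309). Ccdc6 had 722, 593 and 777 FPKM in WT MII, against 361, 147 and 238 FPKM in WT MI (log2 change 1.57 ± 0.29 SE, adjusted p = 0.000377). In these 3 genes WT MI replicate 1 was the WT MI library closest to WT MII, as it was in 431 of the 703 rises. Strn, striatin of a PP2A phosphatase complex, had 298, 376 and 373 FPKM in WT MII, against 170.2, 93.96 and 141 FPKM in WT MI (log2 change 1.40 ± 0.25 SE, adjusted p = 0.000296). Nras, a small GTPase, had 32.02, 22.8 and 30.2 FPKM in WT MII, against 11.96, 10.3 and 8.27 FPKM in WT MI (log2 change 1.39 ± 0.24 SE, adjusted p = 0.000237). Mcu, the channel of the mitochondrial calcium uniporter, averaged 49.01 ± 8.98 FPKM in WT MII and 18.6 ± 10.04 FPKM in WT MI (SD, n = 3 each; log2 change 1.45). The other rises of the 15 were Lrrc8a (2.11), a subunit of the volume-regulated anion channel that shares 68.3% of its exon bases with another gene, the lipid phosphatase Inpp4a (1.66), the G protein subunit Gnb1 (1.64), the KDEL receptor Kdelr2 (1.51), Lzts1 (1.45), Cdv3 (1.40), the actin capping regulator Carmil1 (1.31) and AI481877 (1.31), and the ephrin gene Efna5, which averaged 19.96 ± 5.97 FPKM in WT MII and 6.26 ± 1.26 FPKM in WT MI. All 15 were called without each library in turn. All but Efna5, Strn, Nras and Carmil1 lost the call when low genes were not filtered.

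By FPKM, the largest rise among called protein-coding genes without overlap was that of Spin1, spindlin, a histone reader abundant in oocytes. It had 6152, 7979 and 7476 FPKM in WT MII, against 4108, 2876 and 3479 FPKM in WT MI (log2 change 1.05 ± 0.24 SE, adjusted p = 0.00265). Rfpl4, Ccdc69, Rbbp7 and Mat2b followed among nuclear genes with log2 changes of 0.61, 0.66, 0.66 and 0.71, and none of these calls held without each library in turn. Slbp, which binds the stem-loop of histone mRNAs, averaged 1135 ± 46.4 FPKM in WT MII and 713 ± 136 FPKM in WT MI (log2 change 0.69), and Txnip, an inhibitor of thioredoxin, averaged 974 ± 204 FPKM in WT MII and 534 ± 141 FPKM in WT MI (log2 change 0.88). Parp12 rose to 439.8 FPKM in WT MII, against 222 FPKM in WT MI, a call that held without each library. The calls of Rfpl4 (up to 0.167 without WT MI replicate 1 or 3 or WT MII replicate 1, 2 or 3), Ccdc69 (up to 0.142 without WT MI replicate 1 or WT MII replicate 1, 2 or 3) and Rbbp7 (up to 0.227 without WT MI replicate 1 or 2 or WT MII replicate 1, 2 or 3) were lost with that library left out, by their adjusted p. The calls of Mat2b (up to 0.114 without WT MI replicate 2 or WT MII replicate 1 or 3), Slbp (up to 0.115 without WT MI replicate 1 or 2 or WT MII replicate 1 or 3) and Txnip (up to 0.0766 without WT MI replicate 3 or WT MII replicate 1) were lost likewise.

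**Figure D3:**
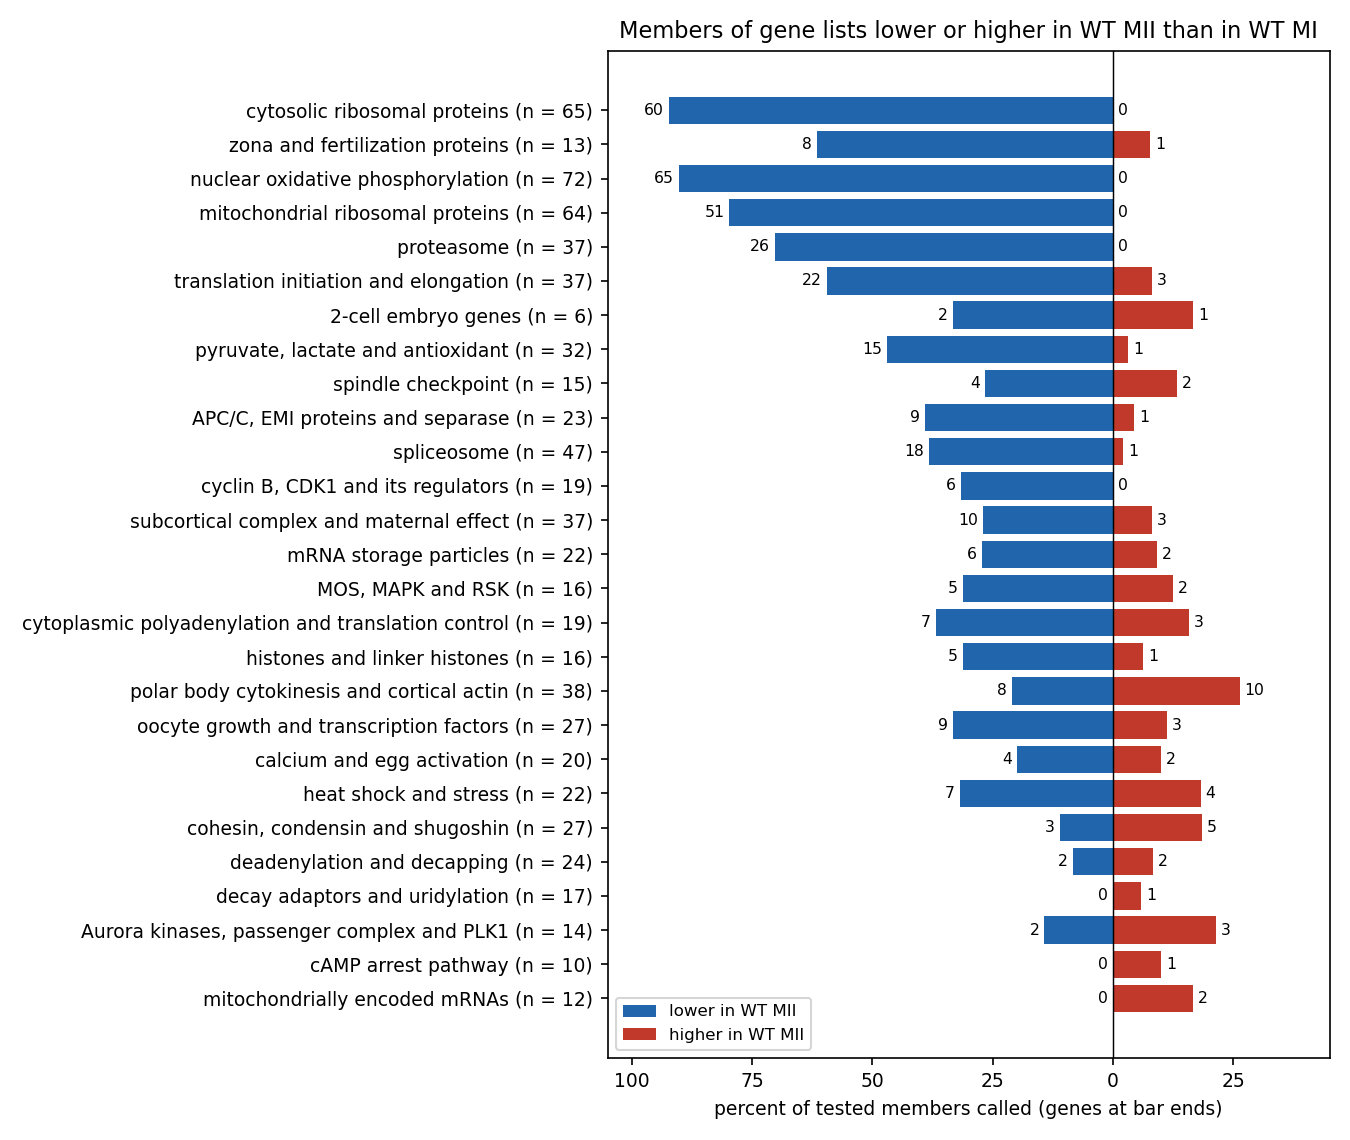
Percent of the tested members of each gene list that were lower (left, blue) or higher (right, red) in WT MII at an adjusted p under 0.05, with the number of genes at the end of each bar. Lists run by median log2 change, from cytosolic ribosomal proteins (60 of 65 lower, none higher) to mitochondrially encoded mRNAs (2 of 12 higher, none lower).

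Lists of the meiotic cell cycle are set against the 29.8% lower and 7.99% higher of all tested genes. The kinase CDK1 with cyclin B drives entry into each metaphase. Of 19 tested genes of cyclin B, CDK1 and its regulators 6 fell (31.6%), and limma called no rise, with 1 at an unadjusted p under 0.05 and 0 with voom (median -0.16, above 0 under the other scalings, which called 1 to 3 rises). Cdk1 had 0.216, 0.172 and 0.15 FPKM in WT MII, against 2.89, 4.77 and 3.87 FPKM in WT MI (log2 change -2.02 ± 0.22 SE, adjusted p = 2.36e-06), and its activating phosphatase Cdc25c averaged 1.58 ± 0.364 FPKM in WT MII and 5.43 ± 0.719 FPKM in WT MI (log2 change -1.32). Of the 19 genes, Cdk1 was the 1 that had passed the filter through the WT MI libraries alone. Ensa, whose product inhibits PP2A-B55, fell (-1.17), as did Ppp2r2b, a B55 subunit (-3.16). Ccnb1, named after its values were seen, averaged 487 ± 28.2 FPKM in WT MII and 344 ± 53.8 FPKM in WT MI and did not pass the test (adjusted p = 0.0786).

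The MOS and MAP kinase pathway holds the MII arrest. Of its 16 tested genes 5 fell (31.3%, near the 29.8% of all genes) and 2 rose (median -0.01, above 0 under the other scalings). Of the 16, 2 had passed the filter through the WT MI libraries alone, Hras and Mapk14. Mapk3 (ERK1) had 28.8, 16.5 and 28.3 FPKM in WT MII, against 124, 145 and 166 FPKM in WT MI (log2 change -2.55 ± 0.25 SE, adjusted p = 9.67e-07), and Hras (-1.74) and Mapk14 (-1.42) fell, whereas Nras and the phosphatase gene Dusp7 (1.15) rose. Mos averaged 223 ± 34.5 FPKM in WT MII and 231 ± 0.198 FPKM in WT MI (adjusted p = 0.848). The anaphase-promoting complex (APC/C) degrades cyclin B, and EMI2, the product of Fbxo43, inhibits it. Of 23 such genes 9 fell (39.1%) and 1, Fbxo43, rose (median -0.39). The activator Fzr1 had 2.14, 1.68 and 1.55 FPKM in WT MII, against 9.85, 13.2 and 9.23 FPKM in WT MI (log2 change -2.06 ± 0.25 SE, adjusted p = 7.29e-06), and Btrc (-1.75), Anapc11 (-1.42) and Anapc15 (-1.03) fell. Fbxo43 averaged 96.4 ± 22.7 FPKM in WT MII and 59.4 ± 4.01 FPKM in WT MI (log2 change 0.67, adjusted p = 0.0347). Anapc15 was the 1 gene of the APC/C list that passed the filter through the WT MI libraries alone, and 38.4% of its exon bases are shared with another gene. Dusp7, Mos and Fbxo43 were named after their values were seen. The call of Fbxo43 was lost without WT MI replicate 1, 2 or 3 or WT MII replicate 1 or 3, with an adjusted p of up to 0.198.

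In the spindle checkpoint list of chromosome segregation 4 of 15 genes fell (26.7%, near the 29.8% of all genes tested) and 2 rose (13.3%, against 7.99% of all; median -0.42). Bub3 averaged 4.08 ± 0.756 FPKM in WT MII and 9.75 ± 0.561 FPKM in WT MI (log2 change -1.09) and Zwint (-1.30) and Zw10 (-0.67) fell, whereas Bub1b (BUBR1) averaged 423 ± 27.2 FPKM in WT MII and 250.3 ± 120.4 FPKM in WT MI (log2 change 0.85). Among the Aurora kinases, the passenger complex and PLK1, 3 of 14 rose (21.4%) and 2 fell (14.3%), with a median of 0.44. Birc5 (survivin), a targeting subunit of the passenger complex, had 117, 129 and 109.8 FPKM in WT MII, against 842, 719 and 832 FPKM in WT MI (log2 change -2.74 ± 0.21 SE, adjusted p = 9.09e-08), and Aurka had 109, 58.5 and 84.3 FPKM in WT MII, against 116, 160.0 and 207 FPKM in WT MI (log2 change -0.94 ± 0.27 SE, adjusted p = 0.0133). Plk4, the kinase of centriole duplication, had 104, 92.97 and 107 FPKM in WT MII, against 58.9, 54.8 and 58.9 FPKM in WT MI (log2 change 0.80 ± 0.21 SE, adjusted p = 0.00664), and Kif20b rose (0.64). Of 27 cohesin, condensin and shugoshin genes 5 rose (18.5%) and 3 fell (11.1%), with a median of 0.28. Meikin, which directs kinetochores in meiosis I, averaged 1.51 ± 0.868 FPKM in WT MII and 8.06 ± 3.43 FPKM in WT MI (log2 change -1.84), and Cdca5 (sororin) (-1.37) and Ncaph2 (-1.22) also fell. The shugoshin gene Sgo2b averaged 16.6 ± 1.22 FPKM in WT MII and 8.89 ± 1.32 FPKM in WT MI (log2 change 0.83). The cohesin release factor gene Wapl (1.07) and Nipbl (0.84), named after their values were seen, rose too. The calls of Zw10 (up to 0.113 without WT MI replicate 2 or WT MII replicate 1 or 3), Bub1b (up to 0.139 without WT MI replicate 2 or 3 or WT MII replicate 1 or 2) and Aurka (up to 0.073 without WT MI replicate 3 or WT MII replicate 2) were lost with that library left out, by their adjusted p. The calls of Kif20b (up to 0.135 without WT MI replicate 1 or WT MII replicate 1 or 3), Sgo2b (up to 0.0558 without WT MII replicate 1 or 3), Wapl (up to 0.0743 without WT MI replicate 2 or 3 or WT MII replicate 2) and Nipbl (up to 0.161 without WT MI replicate 2 or 3 or WT MII replicate 1 or 2) were lost likewise.

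Extrusion of the polar body needs actin filaments and a contractile ring, and here the list split, 10 of 38 genes higher and 8 lower (median 0.11), against 7.99% and 29.8% of all genes. Beside Tmsb10, 7 genes fell. Cfl1, cofilin, had 158, 136 and 215 FPKM in WT MII, against 712, 664 and 1283 FPKM in WT MI (log2 change -2.34 ± 0.28 SE, adjusted p = 5.7e-06), Cfl2 averaged 8.39 ± 1.23 FPKM in WT MII and 43.6 ± 10.6 FPKM in WT MI (log2 change -2.23) and Arpc1a, a subunit of the Arp2/3 complex, averaged 2.297 ± 0.506 FPKM in WT MII and 17.5 ± 5.503 FPKM in WT MI (log2 change -2.46). The profilin genes Pfn1 (-1.55) and Pfn2 (-1.29), the actin gene Actg1 (-2.16) and the myosin light chain gene Myl12a (-0.83) fell too. The rises included the actin nucleators Fmn2 (1.08) and Spire1 (0.65), other subunits of Arp2/3, Actr2 (1.07), Arpc1b (0.92) and Arpc2 (0.70), and the cytokinesis genes Anln (0.65), Rock1 (0.90), Cit (1.10) and Sept2 (1.17), the last sharing 41.8% of its exon bases with another gene. Fmn2 had 71.2, 60.6 and 65.9 FPKM in WT MII, against 48.3, 27.9 and 21.01 FPKM in WT MI. The rises of this list and Pfn1, Pfn2, Actg1 and Myl12a were named after their values were seen, and 4 to 9 genes of the list were higher when each library was left out. The calls of Myl12a (up to 0.0507 without WT MII replicate 1), Spire1 (up to 0.25 without WT MI replicate 1 or 2 or WT MII replicate 1 or 3) and Actr2 (up to 0.141 without WT MI replicate 2 or 3 or WT MII replicate 2) were lost with that library left out, by their adjusted p. The calls of Arpc1b (up to 0.0899 without WT MI replicate 2 or WT MII replicate 1 or 3), Arpc2 (up to 0.0833 without WT MII replicate 1 or 3), Anln (up to 0.116 without WT MI replicate 2 or 3 or WT MII replicate 1, 2 or 3) and Rock1 (up to 0.166 without WT MI replicate 2 or 3 or WT MII replicate 1 or 2) were lost likewise.

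Of the mRNAs for proteins that store, deadenylate or degrade mRNA, those of the storage particle list were called at shares near the 29.8% lower and 7.99% higher of all genes tested, 6 of 22 having fallen (27.3%) and 2 risen (9.09%) (median -0.03, above 0 under the other scalings). Zar1l averaged 8.94 ± 2.48 FPKM in WT MII and 100.2 ± 24.1 FPKM in WT MI (log2 change -3.36 ± 0.26 SE, adjusted p = 9.05e-08). Ybx2 (MSY2), which coats stored mRNA, had 1.98, 1.48 and 2.25 FPKM in WT MII, against 16.98, 17.8 and 14.5 FPKM in WT MI (log2 change -2.59 ± 0.24 SE, adjusted p = 5.56e-07). The poly(A)-binding protein gene Pabpc1l (-1.83) and Patl2 (-1.98) fell, and Lsm14a, the paralog of Lsm14b, rose and averaged 50.9 ± 6.54 FPKM in WT MII and 27.7 ± 6.46 FPKM in WT MI (log2 change 0.87). In deadenylation and decapping 2 of 24 rose and 2 fell (8.33% each way; median 0.30). The decapping factor gene Dcp1a had 193, 148 and 203 FPKM in WT MII, against 96.7, 91.7 and 99.8 FPKM in WT MI (log2 change 0.90 ± 0.22 SE, adjusted p = 0.00398), Pan2 of the PAN2-PAN3 deadenylase rose (0.67), and Pnrc1 (-1.08) and Cnot10 (-0.85) fell. Btg4 averaged 4946 ± 491 FPKM in WT MII and 3788 ± 260.1 FPKM in WT MI, with an adjusted p of 0.197. Among decay adaptors and uridylation 1 of 17 rose, Khsrp, which averaged 16.3 ± 2.71 FPKM in WT MII and 6.74 ± 3.29 FPKM in WT MI (log2 change 1.23), and limma called none lower, with 0 at an unadjusted p under 0.05 and 0 with voom (median 0.41). The other scalings called 9 to 12 rises in the deadenylation list and 5 to 11 in the adaptor list. In cytoplasmic polyadenylation and translation control 7 of 19 fell (36.8%) and 3 rose (15.8%), with a median of 0.01. Of the 19, 1 had passed the filter through the WT MI libraries alone, Cpsf4. Cpsf4 (-1.68), of the cleavage and polyadenylation factor, and its paralog Cpsf4l fell, as did Papolg (-1.16) and Paip2 (-3.37). Cpeb1, the CPE-binding protein, averaged 68.7 ± 17.7 FPKM in WT MII and 120.4 ± 15.3 FPKM in WT MI (log2 change -0.82), and Cpeb4 averaged 16.8 ± 2.01 FPKM in WT MII and 10.1 ± 3.71 FPKM in WT MI (log2 change 0.73). Lsm14a, Btg4, Cpeb1 and Cpeb4 were named after their values were seen. The calls of Lsm14a (up to 0.0545 without WT MII replicate 1), Pan2 (up to 0.173 without WT MI replicate 2 or 3 or WT MII replicate 1 or 3) and Cnot10 (up to 0.0698 without WT MI replicate 2 or WT MII replicate 1 or 3) were lost with that library left out, by their adjusted p. The calls of Cpeb1 (up to 0.0562 without WT MI replicate 2 or WT MII replicate 3) and Cpeb4 (up to 0.155 without WT MI replicate 2 or 3 or WT MII replicate 1, 2 or 3) were lost likewise.

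Other lists were tested for the egg's metabolism, signalling and chromatin. Of 32 genes of pyruvate, lactate and antioxidant metabolism 15 fell (46.9%, against 29.8% of all genes tested) and 1 rose (median -0.56). Of the 32, 3 had passed the filter through the WT MI libraries alone, Gpx4 among them. Mdh2 averaged 1.12 ± 0.374 FPKM in WT MII and 18.7 ± 5.66 FPKM in WT MI (log2 change -3.19), and Pkm (-2.93), the phospholipid peroxidase Gpx4 (-2.34) and Txn2 (-2.20) fell with it. Ldhb, a lactate dehydrogenase, had 1652, 2140.5 and 2789 FPKM in WT MII, against 4550.0, 3858 and 5728 FPKM in WT MI (log2 change -1.12 ± 0.26 SE, adjusted p = 0.00286), a call lost under median-of-ratios scaling. In calcium and egg activation 4 of 20 fell (20%, against 29.8% of all) and 2 rose (10%, against 7.99% of all; median 0.20). Of the 20, 2 had passed the filter through the WT MI libraries alone, Ppp3cc and Calm3. Calm2, a calmodulin gene, had 67.7, 67.1 and 31.9 FPKM in WT MII, against 423, 326 and 401 FPKM in WT MI (log2 change -2.83 ± 0.28 SE, adjusted p = 9.33e-07), and the store-operated channel gene Orai1 (-2.01), the calcineurin gene Ppp3cc (-1.63) and Calm3 (-1.16) fell. The rises, named after their values were seen, were the calcium pump gene Atp2b1 (0.89) and the zinc transporter gene Slc39a10 (0.77). In the cAMP arrest pathway 1 of 10 rose, the phosphodiesterase gene Pde3a, with 25.7, 20.5 and 24.5 FPKM in WT MII, against 16.5, 11.4 and 10.02 FPKM in WT MI (log2 change 0.87 ± 0.25 SE, adjusted p = 0.0108), and none fell in limma, at an unadjusted p under 0.05 or with voom (median 0.58). The other scalings called 6 to 8 of these 10 higher. The call of Pde3a was lost without WT MII replicate 1, with an adjusted p of up to 0.0513.

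Of 22 heat shock and stress genes 7 fell (31.8%, near the 29.8% of all genes tested) and 4 rose (18.2%, against 7.99% of all; median 0.22). Ddit3 had 1.35, 1.53 and 1.26 FPKM in WT MII, against 15.1, 25.1 and 7.93 FPKM in WT MI (log2 change -2.71 ± 0.33 SE, adjusted p = 7.26e-06), and the chaperone genes Hspa8 (-1.82), Hspe1 (-1.47) and Dnajb1 (-1.84) fell. Of 16 histone and linker histone genes, a list with their chaperones, 5 fell and 1 rose (31.3% and 6.25%, near all genes; median 0.03). Of the 16, 2 had passed the filter through the WT MI libraries alone, Chaf1b among them. Npm2, nucleoplasmin, had 826, 1308 and 918 FPKM in WT MII, against 2591, 2580.4 and 3693 FPKM in WT MI (log2 change -1.54 ± 0.25 SE, adjusted p = 0.000141), and Chaf1b (-1.54), H2afx (-1.36) and Hist1h2bc (-1.42) fell. The oocyte linker histone gene H1foo, named after its values were seen, averaged 11560 ± 1110.4 FPKM in WT MII and 7753 ± 1688 FPKM in WT MI (adjusted p = 0.0755). In the list of 2-cell embryo genes 6 were tested, too few to read against the 29.8% lower and 7.99% higher of all genes. Klf17 rose, with 476, 231 and 436 FPKM in WT MII, against 182, 196 and 182 FPKM in WT MI (log2 change 0.96 ± 0.27 SE, adjusted p = 0.00966), and Eif1ad (-0.83) and Tcstv1 (-0.82) fell. Whether each member is particular to the 2-cell embryo was not tested. The calls of Klf17 (up to 0.0646 without WT MII replicate 1), Eif1ad (up to 0.1 without WT MII replicate 3) and Tcstv1 (up to 0.126 without WT MI replicate 2 or WT MII replicate 3) were lost with that library left out, by their adjusted p.

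Genes that rose and fell differed in features of the transcript. Of all 2624 falls, 745 were genes that the filter kept through the WT MI libraries alone. Of the 703 rises, 6 were kept through the WT MII libraries alone. Such genes were not set apart in the features and motifs below, and whether they shift these was not tested. Among protein-coding genes the longest annotated 3′ UTR had a median of 1770 bases in the 651 genes higher in WT MII and 568 bases in the 2145 lower, against 1128 bases in all 7475. The median of merged exon length was 5999 bases for higher and 2852 bases for lower genes, and the GC content 46.3% and 51.5%. When genes were split into 5 groups of equal size by 3′ UTR length, 54.9% were lower and 2.67% higher in the group with the shortest, and in the group with the longest 12.7% were lower and 13.3% higher. The share of falls went down and that of rises went up at each step between them. Zp3, with an annotated 3′ UTR of 13 bases, lies at the short end. Length enters FPKM as a divisor in both stages alike, and transcript length, GC content and poly(A) tail were not separated here.

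**Figure D4:**
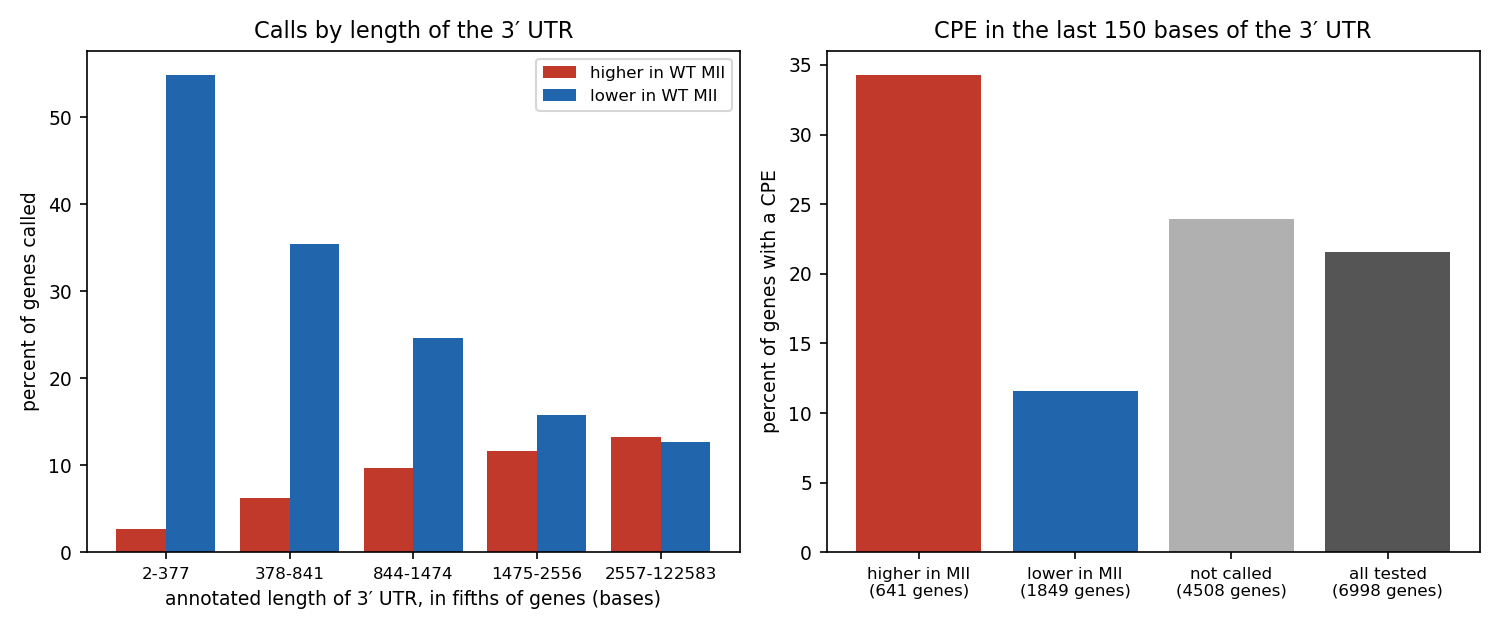
Left, percent of protein-coding genes called higher (red) or lower (blue) in WT MII in 5 groups of equal size by the length of the longest annotated 3′ UTR, with 54.9% lower in the group of shortest and 12.7% in that of longest. Right, percent of genes with a CPE in the last 150 bases of the 3′ UTR, 34.3% of higher, 11.6% of lower, 23.9% of uncalled and 21.6% of all tested genes.

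The CPE, TTTTAT on the sense strand, was looked for in the last 150 bases of 3′ UTRs at least that long. It stood in 34.3% of 641 genes higher in WT MII and 11.6% of 1849 genes lower, against 23.9% of 4508 genes not called and 21.6% of all 6998. Within each of the 5 length groups the share was also larger in higher than in lower genes, 27.6% and 18.9% in the longest, and 46.7% and 10.8% in the shortest, where the first rests on 30 genes and uncalled genes stood at 31.8%. With TTTTAAT counted too the shares were 42.1% and 14.8%. The polyadenylation signal AATAAA stood in 77.2% of higher and 59.1% of lower genes (68.8% of all), TGTANATA, bound by Pumilio proteins, in 8.58% and 5.08% (6.99% of all), and the AU-rich TATTTAT in 8.11% and 3.89% (6.74% of all). Of the 15 leading rises 14 had a 3′ UTR of this length and 3 of these held a CPE. Of 15 leading falls, with Naca in place of Cyb5a, whose sequence was not used here, 10 did, and none held a CPE. Both sets are too small to read against the 21.6% of all tested genes. A match says only that the letters are there. The CPE sites of Inpp4a and Kdelr2 are printed to show how far they lie from the annotated transcript end, with the CPE in capitals, from GENCODE vM21 transcripts on GRCm38. They lie at chr1:37410633-37410662 (+ strand) and chr5:143421872-143421901 (+ strand), and start 92 and 12 bases from that end. The Kdelr2 stretch also holds the signal AATAAA, left in small letters, before its CPE.
Inpp4a: atatagtcactgTTTTATatattcttagct
Kdelr2: taacatcctaaataaacaTTTTATtaaaca
Stretches of 30 bases near the transcript ends of 3 leading falls are printed as well, with the polyadenylation signal in capitals, at chr5:129881161-129881190 (- strand), chr6:72957354-72957383 (- strand) and chr7:120126772-120126801 (- strand). The signals start 23, 25 and 18 bases from the end, and the 3′ UTRs have 230, 271 and 173 bases.
Chchd2: tgagttaaaaaaAATAAAttggttattctg
Tmsb10: atgattgatgaaAATAAAaacacctcgtgg
Zp2: tctttaaactctAATAAAattatcctctgg
Inpp4a and Kdelr2 rose in WT MII, and Chchd2, Tmsb10 and Zp2 fell.

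The change was smaller in KO oocytes for many of the genes that fell in WT. The labels denote the KO group at 14 h after hCG as MII and do not say whether its oocytes had reached metaphase II, so stage and genotype cannot be told apart there. Lsm14b averaged 0.113 FPKM in KO MII and 0.124 FPKM in KO MI. The difference between the changes, KO minus WT, was tested in 9582 genes of the 12 libraries. It passed in 661 genes above 0 (6.90%) and 9 below 0 (0.0939%), 6.99% in all, and with quantile normalization in 543 and 119. The 661 became 395 without KO MII replicate 1, 421 without WT MI replicate 2, 436 without WT MII replicate 2 and 379 without WT MII replicate 3, and the 9 became 100 without WT MI replicate 1. Of the 2624 genes lower in WT MII, 644 passed above 0 and 1 below 0, and their median log2 change was -0.65 in KO and -1.41 in WT. Of the 703 genes higher in WT MII, 4 passed below 0 and 0 above 0, with medians of 0.32 in KO and 0.77 in WT. These genes were chosen on WT values that also enter the difference, so the counts and medians are a description.

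Zp2 had the widest difference among the 30 leading genes, with log2 changes of -0.33 in KO and -4.83 in WT (difference 4.50 ± 0.37 SE, adjusted p = 8.07e-06). It averaged 1175 FPKM in KO MII and 1474 FPKM in KO MI. Tmsb10 changed by -1.70 in KO and -5.37 in WT (difference 3.67 ± 0.38 SE, adjusted p = 7.08e-05), and Chchd2 by -1.97 in KO and -5.48 in WT (difference 3.51 ± 0.35 SE, adjusted p = 7.08e-05). Cd9, Mapk3, Cfl1 and Paip2, which fell in WT, had KO changes of -0.13, 0.43, 0.16 and -0.14, and the differences passed the test, with adjusted p = 0.000225, 0.000218, 0.000935 and 8.07e-06. For this comparison these genes, and Ooep below, were picked after their values were seen. In some other falls the difference did not pass the test. Fam162a changed by -4.48 in KO and -4.95 in WT (difference 0.47 ± 0.48 SE, adjusted p = 0.605), and Ooep by -2.10 in KO and -2.59 in WT (difference 0.50 ± 0.39 SE, adjusted p = 0.485). Of the 15 leading falls 13 passed, and of the 15 leading rises Wtap and Sall4 passed. The differences of Wtap, Sall4, Ndufb11, Znrd1 and Elof1 lost the call without some single libraries. By list, against 6.90% of all genes tested, the difference was above 0 in 13 of 68 ribosomal protein (1 was below 0), 15 of 72 oxidative phosphorylation, 6 of 38 proteasome and 5 of 13 zona and fertilization genes, and in 0 of 12 mitochondrially encoded mRNAs, a number too small to read against that share. Most tested genes of the first 4 lists fell in WT, and the WT values enter the difference. Of all 2624 genes that fell in WT, 644 passed above 0. The list counts are therefore a description and do not set these lists apart from other falls.

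**Figure D5:**
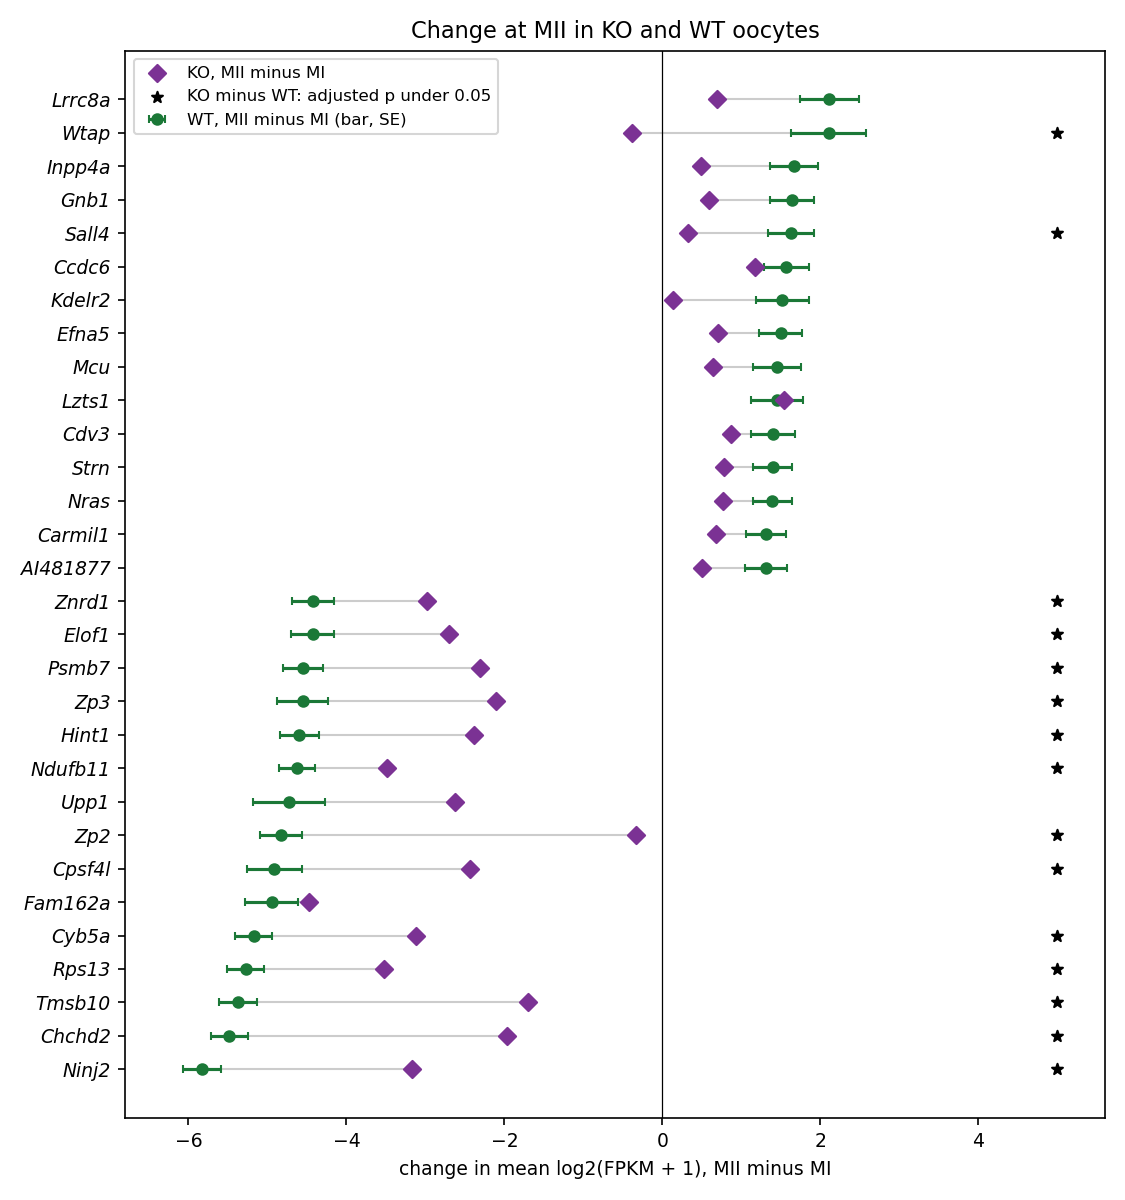
Change in mean log2(FPKM + 1), MII minus MI, in KO (diamonds) and WT (circles, with SE) for the 15 leading rises and 15 leading falls in WT, with a star where the difference between genotypes has an adjusted p under 0.05. Zp2 is the widest gap, with -0.33 in KO and -4.83 in WT, and Fam162a and Lzts1 are among those with overlapping or close values.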

How the data were processed

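RNA levels were taken from the deposited table, in which the authors gave each gene as FPKM in 18 columns. Smart-seq2 with an oligo(dT) primer made the cDNA, per the labels' protocols. DESeq2 1.38.3 and mm10 stand in the submitters' processing notes, their role unstated, and for aligner, counter, annotation and strand nothing is stated in the sources used here. Of the gene IDs, 27829 matched GENCODE vM21 and 45 did not. FPKM times exon length gave whole reads within 0.1 read for 94.1% of genes, from which depth was recovered. Depth covers counting error only, since PCR copies are not separate molecules, and 1 read in a 1 kb gene was 0.0593 to 0.0659 FPKM in the 6 libraries.

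Genes that reached 1 FPKM in 3 or more of these 6 libraries were fitted on log2(FPKM + 1), a scale that understates the change of low genes, with limma 3.58.1 in R 4.3.3 (moderated two-sided test with a variance trend, 4 residual degrees of freedom). P-values were adjusted by Benjamini-Hochberg over all genes tested, with a threshold of 0.05. The genotype difference is the interaction term over 12 libraries. No scaling was added. Tables and figures used Python 3.11.15 with pandas 2.3.3, numpy 2.4.6 and matplotlib 3.10.9. The fit was tested on simulated data.

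The members compared and the 30 gene lists (994 different symbols) were chosen with earlier results of these data known. Named genes were the 15 largest rises and falls by log2 change and by FPKM (called, mean of at least 5 FPKM, no overlap, protein coding, no predicted or clone names), the 4 list members of lowest p at most, per list, and Lsm14b. Lists are given by counts and medians, with no set test. Features are those of the longest annotated 3′ UTR. Alternatives were pseudocounts of 0.1 and 5, no filter or a filter at 5 FPKM, 3 scalings, a fit of all 18 libraries, the replicate number as a block, a 2-fold minimum, voom on recovered reads and leaving out each library. The 300-base motif window was chosen after seeing the data.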

Additional observations from a re-analysis of the deposited data

Results flagged for a closer look

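The change from MI to MII differed between KO and WT oocytes, by limma's interaction term over 12 libraries (3 per group, adjusted over 9582 genes), in 15 of the 30 genes with the largest log2 changes in WT. These genes were chosen on WT values that also enter the difference. All values are on the log2(FPKM + 1) scale, and the difference is KO minus WT.

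In 2 genes that rose in WT the difference was below 0. Wtap changed by -0.39 in KO and 2.10 in WT, a difference of -2.49 ± 0.67 SE, adjusted p = 0.0349. Sall4 changed by 0.33 in KO and 1.63 in WT, a difference of -1.30 ± 0.38 SE, adjusted p = 0.0491. In WT MI, replicate 1 of Wtap had 16.1 FPKM and the others 2.54 and 2.21 FPKM.

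In 13 genes that fell in WT the difference was above 0, which means a smaller fall in KO. Ninj2 changed by -3.17 in KO and -5.83 in WT, a difference of 2.66 ± 0.31 SE, adjusted p = 0.000179. Chchd2 changed by -1.97 in KO and -5.48 in WT, a difference of 3.51 ± 0.35 SE, adjusted p = 7.08e-05. Tmsb10 changed by -1.70 in KO and -5.37 in WT, a difference of 3.67 ± 0.38 SE, adjusted p = 7.08e-05. Rps13 changed by -3.52 in KO and -5.27 in WT, a difference of 1.75 ± 0.30 SE, adjusted p = 0.00286. Cyb5a changed by -3.12 in KO and -5.18 in WT, a difference of 2.06 ± 0.44 SE, adjusted p = 0.00986. Cpsf4l changed by -2.44 in KO and -4.91 in WT, a difference of 2.47 ± 0.48 SE, adjusted p = 0.00556. Zp2 changed by -0.33 in KO and -4.83 in WT, a difference of 4.50 ± 0.37 SE, adjusted p = 8.07e-06. Ndufb11 changed by -3.48 in KO and -4.63 in WT, a difference of 1.15 ± 0.31 SE, adjusted p = 0.0367. Hint1 changed by -2.38 in KO and -4.60 in WT, a difference of 2.21 ± 0.33 SE, adjusted p = 0.00095. Zp3 changed by -2.11 in KO and -4.55 in WT, a difference of 2.44 ± 0.45 SE, adjusted p = 0.00408. Psmb7 changed by -2.31 in KO and -4.55 in WT, a difference of 2.24 ± 0.51 SE, adjusted p = 0.0136. Elof1 changed by -2.70 in KO and -4.43 in WT, a difference of 1.72 ± 0.40 SE, adjusted p = 0.0153. Znrd1 changed by -2.98 in KO and -4.42 in WT, a difference of 1.44 ± 0.36 SE, adjusted p = 0.0227. Zp2 showed the widest difference of the 15. Without 1 library the difference lost its call in 5 of the 15, with adjusted p of up to 0.11 for Wtap (8 of 12 libraries, each left out in turn), 0.14 for Sall4 (11), 0.102 for Ndufb11 (9), 0.0504 for Elof1 (1) and 0.0658 for Znrd1 (6). Elof1 lost it without KO MII replicate 1. Sall4 and Ndufb11 also lost it under median-of-ratios scaling. Whether KO oocytes at this time had reached metaphase II was not tested.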

How the results depend on the processing

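The count of falls moved less with the processing, and that of rises moved with scaling and with single libraries. For genes higher in WT MII (703 as reported) the counts were 2168 with median-of-ratios scaling, 3389 with quantile normalization, 1565 with scaling to TPM, 189 with no filter on low values, 74 at a 2-fold minimum, and 180 to 917 without 1 library. For genes lower (2624) they were 1453 with a filter at 5 FPKM, which tests 4756 genes, 1913 with no filter, 1945 at a 2-fold minimum, and 2221 to 2726 without 1 library. The other alternatives gave 530 to 742 higher and 2112 to 2696 lower, and voom shared 597 of the rises and 2288 of the falls. Whether replicate numbers pair the libraries is not known. Same-numbered libraries had deviations from their group means that correlated at -0.05, -0.10 and 0.23, and the other pairs across groups at -0.17 to 0.17. With 3 libraries per group these values cannot decide it. With a replicate block there were 742 genes higher and 2696 lower, of which 640 and 2603 were shared with the reported calls. For the genotype difference, genes above 0 (661) numbered 212 with no filter and 379 to 861 without 1 library. Genes below 0 (9) numbered 17 with a filter at 5 FPKM, 4 in a fit of all 18 libraries, 57 with median-of-ratios scaling, 119 with quantile normalization, 5 with a replicate block, and 3 to 100 without 1 library, the 100 being without WT MI replicate 1. The cause was not tested.

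Of 143 called genes among the 158 named, 118 kept the call without each library and 92 under every alternative, and none changed direction. Of the list counts and medians 1192 stayed and 304 moved, most often counts of rises. The median 3′ UTR of higher and lower genes was 1512 and 468 bases in the longest coding transcript, and 2124 and 525.5 bases in genes whose call held without each library, of which 42.2% and 10.6% held a CPE. In the last 300 bases 48.9% of higher and 20.3% of lower genes held one. Falls of genes below 1 FPKM in WT MII rest on few reads there.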

Other observations

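Genes outside the protein-coding set were among those called. Processed pseudogenes made up 188 of the 2624 genes lower in WT MII and 16 of the 703 higher, and lincRNAs 136 and 14. Protein-coding genes made up 2161 of the falls and 656 of the rises. The number tested of each kind is not given here. These counts therefore cannot be set against the 29.8% lower and 7.99% higher of all genes tested. Reads of processed pseudogenes cannot be told apart from those of near-identical parent genes here.

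The WT MI libraries differed in how near they lay to WT MII. Of the 2624 falls, WT MI replicate 3 was the WT MI library nearest to WT MII in 1218, replicate 1 in 1161 and replicate 2 in 245. Of the 703 rises, WT MI replicate 1 was the nearest in 431, replicate 2 in 197 and replicate 3 in 75, and WT MII replicate 2 was the WT MII library nearest to WT MI in 487.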
